A study of Mus musculus with 27 samples.

Results

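The genes described here are 9 secreted factors that hepatic stellate cells (HSCs), the vitamin A-storing pericytes of the liver sinusoid, make in the resting liver: Hgf, Gdf2, Bmp10, Bmp5, Ecm1, Adamtsl2, Colec10, Colec11 and Reln. They were taken by name, as known stellate products that act on neighbouring cells, from 53379 genes in the count table, and the rule that names them uses no measured value, although results of these data were known when they were named. The series holds 27 RNA-seq libraries. HSCs of male Balb/c mice were sorted after liver perfusion by the fluorescence of their vitamin A under ultraviolet light and used without culture. Injury was produced by carbon tetrachloride (CCl4), a toxin of hepatocytes, given into the peritoneum in mineral oil at 0.5 µL per gram body weight. The acute groups came from mice of 10 to 12 weeks that received 1 injection and were studied after 24 h (3 libraries), 72 h (4 libraries) or 7 d (4 libraries). The chronic groups came from mice of 8 to 10 weeks at the start that received 8 injections over 4 weeks and were studied 24 h, 72 h or 14 d after the last one (4 libraries each). The 4 healthy libraries came from untreated mice of 10 to 12 weeks, so the controls received neither CCl4 nor mineral oil. The sort keeps cells that still hold vitamin A, and cells that had lost it are not represented.

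HSCs lie between hepatocytes and the sinusoidal endothelium and signal to both. In the resting liver they are a source of hepatocyte growth factor, which acts on hepatocytes through the receptor Met, and of BMP9 (the product of Gdf2) and BMP10, which act on endothelial cells through the receptor ALK1 (Acvrl1) and its partner endoglin. They also release matrix proteins that hold TGF-beta in latent form, collectins of the lectin pathway of complement, and reelin. On injury HSCs turn into contractile, collagen-producing cells, a change called activation.

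The libraries held 6.31 M to 13.1 M counts, in a lower class of 8 libraries (6.31 M to 7.58 M: chronic 24 h and 72 h replicates 1 and 2 and all of chronic 14 d) and a higher class of 19 (10.8 M to 13.1 M). Depth and group can therefore not be told apart at chronic 14 d. Libraries of a group correlated at 0.956 to 0.982 over log2 CPM (CPM being a gene's count per M of the scaled library total). This was taken over all 53379 genes, including 16198 without a count in any library, and not over the expressed genes alone. All 16 stellate markers checked had counts in every group, and their summed level was 14487 to 16064 CPM in healthy libraries and 6750 to 9901 CPM elsewhere. Lrat, the enzyme that stores vitamin A as esters, averaged 1794 CPM in healthy HSCs and was not called in any comparison with healthy HSCs, while the activation genes Acta2 and Col1a1 rose by 8.94 ± 0.97 and 4.62 ± 0.39 (log2 fold change ± SE) at chronic 24 h, with adjusted p of 3.3e-07 and 8.9e-09. The 16 hepatocyte markers summed to 82.0 to 486 CPM at acute 24 h, 978 to 1791 CPM in healthy replicates 1 to 3, 7154 CPM in healthy replicate 4 and up to 16617 CPM at chronic 14 d. The 16 macrophage markers reached 4687 to 12103 CPM at acute 7 d against 190.2 to 777 CPM in healthy libraries. Summed markers of other cell types were also higher in some injured groups. The 8 smooth muscle markers, which include Acta2, summed to 660 to 817 CPM in healthy libraries and 1131 to 3814 CPM at chronic 24 h. The 13 mesothelial and portal fibroblast markers went from 129 to 203 CPM in healthy to 1051 to 1968 CPM at chronic 72 h. The 8 cholangiocyte markers, which include the activation gene Spp1, went from 56.1 to 103 CPM to 762 to 4798 CPM at acute 7 d. Of the 7 cholangiocyte markers tested, 1 was called higher at that time (9.23% of all genes were) and 6 were not called. The 10 neutrophil markers held 0.390 to 2.18 CPM in healthy libraries and at most 72.1 CPM elsewhere. At chronic 24 h the lower-depth replicates 1 and 2 also differed from replicates 3 and 4 in marker sums. Macrophage markers summed to 3271 and 4451 CPM against 699 and 1408 CPM, and hepatocyte markers to 4925 and 3232 CPM against 988 and 1526 CPM. Smooth muscle markers summed to 1131 and 1950 CPM against 3385 and 3814 CPM. Depth and cell content can therefore not be told apart within that group. The part of these other cell types in the values of Acta2, Col1a1 and the factors was not tested. Healthy replicate 4 stood apart in hepatocyte RNA, and some results that rest on it are given with and without it. Others are given only with it, among them Ecm1 at times other than chronic 24 h and the hepatocyte genes of the lists below.

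All 9 genes were measured well above the filter on low counts in every library, from 708 counts (Bmp5) upwards. Per kb of exon, the scale on which genes can be compared, Ecm1 had the highest healthy level, 3652 ± 1327 CPM per kb (mean ± SD, n = 4), followed by Colec11 at 2030 ± 285 and Gdf2 at 1213 ± 98.9. Colec10 (375 ± 85.2), Hgf (163 ± 12.3), Reln (110.3 ± 20.0), Bmp5 (99.4 ± 16.3), Bmp10 (76.9 ± 17.5) and Adamtsl2 (33.3 ± 11.9 CPM per kb) followed. By CPM, which also grows with transcript length, Ecm1 was number 7 of the 53379 genes in healthy HSCs, Gdf2 number 21, Colec11 number 26 and Reln number 37, and the lowest of the 9, Adamtsl2, was number 604.

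Proximal promoters are shown for Gdf2 and Bmp10, whose products share a receptor, and for Ecm1, the member with the highest level. The 250 bases before the start come from RefSeq (GRCm38.p6) and are written on the strand of the gene, with matches to 7 short motifs, searched on both strands, in capitals.
Gdf2, chr14:33940789-33941038, + strand: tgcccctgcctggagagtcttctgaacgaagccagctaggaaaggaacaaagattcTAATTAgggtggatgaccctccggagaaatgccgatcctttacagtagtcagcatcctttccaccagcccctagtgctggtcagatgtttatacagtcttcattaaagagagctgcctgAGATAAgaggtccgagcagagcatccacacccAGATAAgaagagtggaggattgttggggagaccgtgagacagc
Bmp10, chr6:87428744-87428993, + strand: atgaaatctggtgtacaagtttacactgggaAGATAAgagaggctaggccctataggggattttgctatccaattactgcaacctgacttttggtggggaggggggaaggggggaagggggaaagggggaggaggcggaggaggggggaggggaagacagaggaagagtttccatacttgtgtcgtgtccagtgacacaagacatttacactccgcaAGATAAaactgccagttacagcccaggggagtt
Ecm1, chr3:95739570-95739819, - strand: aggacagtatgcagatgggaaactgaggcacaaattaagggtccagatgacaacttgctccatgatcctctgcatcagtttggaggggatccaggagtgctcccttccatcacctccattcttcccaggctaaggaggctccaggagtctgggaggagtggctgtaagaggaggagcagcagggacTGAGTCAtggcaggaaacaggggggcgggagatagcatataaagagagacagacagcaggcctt
In Gdf2 the GATA motif AGATAA stands 75 and 43 bases before the start and the homeobox motif TAATTA 194 bases before it. In Bmp10 the same GATA motif stands 219 and 33 bases before the start. In Ecm1 the capitals mark an AP-1 motif, TGACTCA read on the other strand, 64 bases before the start. Colec11 holds the GATA motif once, 78 bases before its start, and Reln holds the E-box CACGTG and the BMP SMAD motif GGCGCC, 71 and 43 bases before its start. Windows of Hgf (2 starts), Bmp5 and Adamtsl2 held none of the 7, which also included the nuclear receptor motif AGGTCA and the TEAD motif GGAATG. No window was at hand for Colec10. Of 32536 promoter windows of this length, 9.97% held AGATAA, 4.45% TGACTCA, 6.04% CACGTG, 4.84% TAATTA, 9.65% GGCGCC, 14.0% AGGTCA and 12.6% GGAATG. Letters at these rates describe a sequence and do not show a bound factor.

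Which factors were called lower than in healthy HSCs differed between the 6 injured groups, and Adamtsl2 was called lower in none of them. A gene was called at an adjusted p below 0.05 (edgeR, over 18758 genes) and a change above 2-fold. At acute 24 h the 3 factors Colec10, Colec11 and Reln were called lower (12.5% of all genes were) and 0 higher (9.41% of all genes). At an adjusted p below 0.05 without the fold minimum, Bmp5 was lower and Adamtsl2 higher as well. At acute 72 h, 5 were lower (background 4.33%), with Bmp5 and Ecm1 added to the first 3, and Adamtsl2 was the 1 higher (8.23%). At acute 7 d, 7 were lower (5.64%), now with Hgf, Gdf2 and Bmp10 and without Colec10, and 0 were higher (9.23%). Colec10 missed only the fold minimum there (-0.95 ± 0.25, adjusted p = 0.0081). After repeated injury 6 were lower at chronic 24 h (8.11%), namely Gdf2, Bmp5, Ecm1, Colec10, Colec11 and Reln, and 8 at chronic 72 h (4.20%), all but Adamtsl2. At chronic 24 h 0 were higher (11.2%), and at chronic 72 h likewise 0 (7.88%). At chronic 14 d Colec11 was the 1 factor lower (1.17%) and 0 were higher (4.55%). The median log2 fold change of the 9 was -0.47 at acute 24 h, -1.14 at acute 72 h, -1.21 at acute 7 d, -1.69 at chronic 24 h, -1.42 at chronic 72 h and -0.67 at chronic 14 d. The corresponding median of all genes was -0.12 at acute 24 h and between -0.03 and 0.01 in the other 5. Counted by libraries that did not overlap with the healthy ones, 5 factors were lower and 2 higher at acute 24 h (20.1% and 19.7% of all genes), 8 and 1 at acute 72 h (9.37% and 14.2%) and 8 and 0 at acute 7 d (10.3% and 14.4%). After repeated injury, 7 and 0 were so at chronic 24 h (11.6% and 14.7%), 8 and 0 at chronic 72 h (9.14% and 12.0%) and 4 and 0 at chronic 14 d (6.39% and 6.94%). The summed stellate markers were also below every healthy library in all 6 injured groups, though not each marker fell. Of the 16, 7 were called lower and 2 higher at acute 24 h, 6 and 1 at acute 72 h and 7 and 0 at acute 7 d. After repeated injury, 10 were called lower and 2 higher at chronic 24 h, 7 and 0 at chronic 72 h and 4 and 0 at chronic 14 d. These counts have the same shares of all genes beside them as the called factors. The part of a changed cell mixture in these results was not tested. In such bulk libraries, fewer cells of a type and less RNA per cell cannot be told apart. The labels do not tie libraries to animals, so p-values measure the spread between these libraries.

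**Figure D1:**
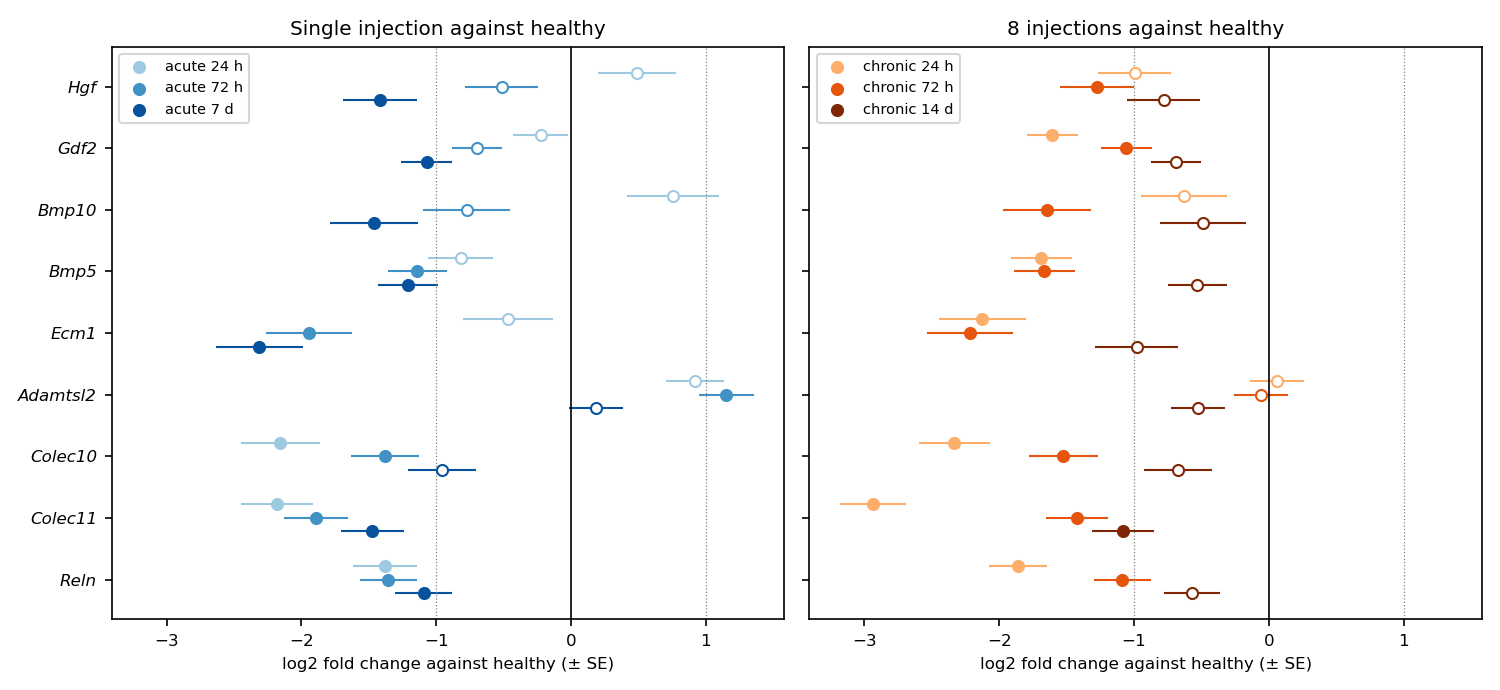
Log2 fold change against healthy HSCs (x axis, bars ± SE of the edgeR fit) of the 9 genes (y axis) after 1 injection (left) and 8 injections (right). Filled points passed an adjusted p below 0.05 and 2-fold (dotted lines), open points did not. Colec10, Colec11 and Reln lie beyond -1 at acute 24 h, where Hgf, Bmp10 and Adamtsl2 lie above 0.

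Hgf (chr5:16553495-16620152 in GRCm38, + strand) encodes hepatocyte growth factor, a mitogen of hepatocytes. Its level was 1093, 1185, 1111 and 1288 CPM in the healthy libraries and 1567, 1409 and 1961 CPM at acute 24 h. All 3 acute 24 h libraries lay above all healthy ones, yet the log2 fold change of 0.49 ± 0.29 (SE) did not pass the test (adjusted p = 0.20). Levels were then 1070, 750.4, 761 and 692 CPM at acute 72 h and 426, 571, 265 and 489.9 CPM at acute 7 d. The acute 7 d libraries lay below every healthy library, at 37.5% of the healthy mean, and the change passed (log2 fold change -1.42 ± 0.28, adjusted p = 6.0e-04). Against acute 24 h the fall at 7 d was -1.91 ± 0.29 (adjusted p = 2.0e-05).

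After 8 injections Hgf stood at 433, 461, 742 and 708 CPM at 24 h and at 441, 482, 596 and 418 CPM at 72 h. All 8 libraries were below the healthy ones. The change at chronic 72 h was called (-1.27 ± 0.27, adjusted p = 0.0018), and that at chronic 24 h was just short of 2-fold (-1.0 ± 0.27, adjusted p = 0.0072). The lower values at chronic 24 h were those of the lower-depth libraries, and with higher-depth libraries alone the change was -0.68 (adjusted p = 0.072). At chronic 14 d the libraries spread from 337 to 1017 CPM (-0.78 ± 0.27, adjusted p = 0.076), all below the lowest healthy value. An exon stretch of 484 bases, 6.74% of Hgf, is shared with Gm43489 on the same strand, whose counts ran from 7 to 1876, so reads there are uncertain.

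In the lists that follow, counts are to be read against the 9.41% of all genes that rose and 12.5% that fell at acute 24 h, and the 11.2% and 8.11% at chronic 24 h. Of 18 tested genes that receive, activate or restrain HGF, 5 rose and 6 fell at acute 24 h and 6 rose and 1 fell at chronic 24 h, with medians of 0.02 and 0.07 (all genes -0.12 and -0.03). Those that rose included the plasminogen activators Plat and Plau, proteases that can cut HGF or plasminogen, and the urokinase receptor Plaur on the cell surface. Plat, tissue plasminogen activator, went from 22.8 ± 8.4 CPM (SD, n = 4) in healthy to 844 ± 131.5 CPM (SD, n = 4) at chronic 24 h (5.21 ± 0.32, adjusted p = 8.9e-11). Plaur, the urokinase receptor, rose by 5.95 ± 0.43 at acute 24 h and 5.03 ± 0.41 at chronic 24 h, and urokinase itself (Plau) by 3.76 ± 0.44 and 4.73 ± 0.45. Those that fell at acute 24 h included the circulating activators Hgfac (-4.08 ± 0.96, adjusted p = 0.0021) and F12 (-4.16 ± 1.24, adjusted p = 0.012), and Klkb1 averaged 6.0 CPM in healthy libraries and had no count in the 3 acute 24 h libraries. These 3 are genes of hepatocytes, and not all of the 6 that fell are named here. Of 16 hepatocyte markers 14 also fell at acute 24 h, from 978 to 7154 CPM in sum to 82.0 to 486 CPM. Their part in these falls was not tested. Met itself averaged 2.82 CPM in healthy HSCs and was not called at either 24 h time. The activator St14 and the inhibitor Spint1 stayed below 1 CPM on average at these times, and Spint2 was 63.3 CPM in healthy and not called.

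Gdf2 (chr14:33941039-33947198, + strand) encodes BMP9, which circulates and keeps endothelium quiescent. Healthy libraries held 3299, 3678, 4003 and 3522 CPM and acute 24 h libraries 3241, 2981 and 3088 CPM. The acute 24 h values all lay under the healthy ones, by a log2 fold change of -0.22 ± 0.20 that did not pass (adjusted p = 0.43). At acute 7 d the level was 1400, 1516, 1910 and 2078 CPM, below every healthy and acute 24 h library (-1.07 ± 0.19 against healthy, adjusted p = 2.2e-04), and at acute 72 h it was 2029 to 2455 CPM, overlapping with acute 7 d. The lowest levels were at chronic 24 h, with 1780, 1171, 1020 and 795 CPM, 32.9% of the healthy mean (-1.61 ± 0.19, adjusted p = 9.1e-07). Here the higher-depth libraries were the lower ones, and alone they gave -1.99. At chronic 14 d all 4 libraries (2417, 2110, 2079 and 2389 CPM) exceeded all chronic 24 h libraries (0.92 ± 0.19, adjusted p = 0.0010, short of 2-fold) and stayed below all healthy ones. The calls at acute 7 d and chronic 72 h (-1.06 ± 0.19) were near 2-fold. Without acute 7 d replicate 1 the first was -0.97, and without chronic 72 h replicate 4 the second was -0.95.

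Bmp10 (chr6:87428994-87437677, + strand) encodes the other ALK1 ligand. Its level was 305, 314, 299 and 463 CPM in healthy libraries, with replicate 4 apart, and 618, 409 and 723 CPM at acute 24 h. The groups overlapped through healthy replicate 4, and the log2 fold change of 0.76 ± 0.34 did not pass (adjusted p = 0.092, and 0.93 with adjusted p = 0.055 without that library). Levels were 160.0 to 235 CPM at acute 72 h and 85.3, 115, 133 and 169.8 CPM at acute 7 d. From acute 24 h to 7 d Bmp10 fell by 2.22 ± 0.35 on the log2 scale (adjusted p = 2.7e-05), and at 7 d it was lower than in healthy HSCs (-1.46 ± 0.33, adjusted p = 0.0021). At chronic 24 h the lower-depth libraries held 122 and 127 CPM and the higher-depth ones 331 and 311 CPM, so the group reached into the healthy range and was not called (-0.63 ± 0.32, adjusted p = 0.14). The chronic 72 h libraries were close together at 109, 102, 128 and 102 CPM in both depth classes (-1.64 ± 0.33, adjusted p = 8.7e-04).

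Bmp5 (chr9:75775364-75900310, + strand) encodes a BMP that signals through type I receptors of the BMPR1 kind. It held 403, 325, 388 and 485 CPM in healthy libraries, 209, 219 and 253 CPM at acute 24 h and 106, 106, 145 and 139 CPM at chronic 24 h. No injured library of these times reached a healthy one. The change was short of 2-fold at acute 24 h (-0.82 ± 0.24, adjusted p = 0.011) and called at chronic 24 h (-1.69 ± 0.22, adjusted p = 4.2e-06) and at the 3 other times up to chronic 72 h (-1.14 to -1.67). At chronic 14 d replicates 1 and 2 held 202 and 158 CPM and replicates 3 and 4 held 328 and 419 CPM, inside the healthy range (-0.53 ± 0.22, adjusted p = 0.14). Exons of Bmp5 share 1878 of 4025 bases (46.7%) with Gm26903, annotated on the opposite strand, with 871 to 7398 counts. The strand setting of the counting is not stated, so reads of the pair cannot be told apart and the level of Bmp5 is uncertain.

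Of 11 BMP receptor genes tested, 4 fell and 0 rose at acute 24 h and 3 fell and 1 rose at chronic 24 h (medians -0.55 and -0.54). The activin type II receptors fell at both times, Acvr2a by 1.71 ± 0.35 and 1.83 ± 0.32 and Acvr2b by 1.64 ± 0.53 and 2.57 ± 0.51 on the log2 scale. Hjv, a BMP co-receptor of hepatocytes, averaged 2.87 CPM in healthy libraries and had no count at acute 24 h. Acvrl1, the ALK1 receptor, was low in HSCs, 5.80 ± 3.37 CPM in healthy, 2.46 ± 0.78 CPM at acute 24 h (-1.23 ± 0.42, adjusted p = 0.025) and 19.3 ± 7.63 CPM at chronic 24 h (1.73 ± 0.37, adjusted p = 9.0e-04). Of 15 sinusoidal endothelial markers, 9 fell and 1 rose at acute 24 h and 8 fell and 0 rose at chronic 24 h, and their part in the level of this endothelial gene was not tested. Eng, endoglin, averaged 947 CPM in healthy and was not called at any time, nor was Bmpr1a at either 24 h time. Bmpr2 was called lower at chronic 24 h (-1.01 ± 0.18, adjusted p = 1.9e-04).

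Of 14 transducers and target genes, 2 rose and 2 fell at acute 24 h and 0 changed at chronic 24 h (medians 0.11 and 0.16), so the acute counts were near those shares of all genes. Id1 and Id3, inhibitors of differentiation that BMPs switch on, were the 2 that rose. Id1 averaged 34.8 CPM in healthy and 195.5 CPM at acute 24 h (2.49 ± 0.46, adjusted p = 2.1e-04), and 27.4 CPM at chronic 24 h. Id3 held 889 to 945 CPM in healthy and 1797 to 2836 CPM at acute 24 h (1.30 ± 0.21, adjusted p = 4.9e-05), without overlap. The 2 that fell were Hey1 (-1.43 ± 0.34) and Hamp, the hepatocyte gene of hepcidin, which had no count at acute 24 h. Smad6, an inhibitor that BMPs induce, was called once, higher at acute 72 h (1.19 ± 0.41, adjusted p = 0.040). Against acute 24 h, Id1 was lower at chronic 24 h by 2.83 ± 0.47 and Id3 by 1.12 ± 0.21 on the log2 scale.

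Among 12 tested antagonists 4 rose and 4 fell at acute 24 h, and 5 rose and 1 fell at chronic 24 h (medians -0.54 and 0.65). Bmper, a BMP-binding modulator, rose from 8.68 ± 1.6 CPM to 215 ± 61.2 CPM at acute 24 h (4.63 ± 0.26, adjusted p = 3.1e-11) and by 4.06 ± 0.25 at chronic 24 h. Fstl3, which binds activins, rose by 5.84 ± 1.13 and 6.19 ± 1.13, and Nbl1 by 3.11 ± 0.38 and 3.57 ± 0.38. Bambi, a decoy receptor, fell at both times (-1.0 ± 0.25 and -1.05 ± 0.23). Chrdl1 fell at acute 24 h (-3.34 ± 0.85, adjusted p = 0.0039), and Grem1 was too low to be tested. Of 15 other BMP and activin ligands, 2 rose and 5 fell at acute 24 h and 2 rose and 2 fell at chronic 24 h (medians -0.18 and 0.45). Bmp4 fell from 197 CPM to 41.0 CPM at chronic 24 h (-2.26 ± 0.17, adjusted p = 2.1e-09), and Bmp6 fell at both times. Gdf6 fell at acute 24 h (-1.66 ± 0.23) and rose at chronic 24 h (1.74 ± 0.21, adjusted p = 1.3e-06). The activin subunit Inhbb was among the 2 that rose at acute 24 h (2.67 ± 0.65). Inhbe, at 3.27 CPM in healthy, fell (-2.61 ± 0.98), and Inhbc, at 4.85 CPM in healthy, had no count. At that time 14 of 16 hepatocyte markers also fell, and their part in these 2 falls was not tested.

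Ecm1 (chr3:95734147-95739569, - strand) encodes extracellular matrix protein 1, known to hold TGF-beta in its latent complex in the liver. Healthy libraries held 9714, 6587, 6785 and 13746 CPM, the highest being replicate 4, and acute 24 h libraries 7388, 3991 and 8624 CPM. The groups overlapped and the log2 fold change of -0.47 ± 0.34 did not pass (adjusted p = 0.31). The hepatocyte marker sum was lowest at acute 24 h, and its part in the level of Ecm1 was not tested. At acute 72 h the libraries dropped to 2767, 2795, 1912 and 2088 CPM, below all of the former (-1.95 ± 0.32 against healthy, adjusted p = 1.1e-04). At acute 7 d the level was 20.1% of the healthy mean (-2.31 ± 0.32, adjusted p = 1.7e-05). After 8 injections the low level was already there at 24 h, with 1901, 2854, 1952 and 1738 CPM (-2.12 ± 0.32, adjusted p = 2.0e-05), and -1.87 without healthy replicate 4. At chronic 14 d Ecm1 stood at 6334, 3394, 4318 and 4613 CPM, above all chronic 24 h libraries and below all healthy ones. Against healthy this was -0.98 ± 0.31, short of 2-fold (adjusted p = 0.050). The hepatocyte sum ran from 3747 to 16617 CPM in that group, and its part was not tested.

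Adamtsl2 (chr2:27079379-27108981, + strand) encodes a microfibril glycoprotein without protease activity that binds the latent TGF-beta binding protein LTBP1, and it was the exception among the 9. Its level was 390.3, 279, 164 and 233 CPM in healthy libraries, 537, 472 and 502 CPM at acute 24 h and 719, 635, 418 and 594 CPM at acute 72 h. Both acute groups lay above all healthy libraries. The difference was 0.92 ± 0.22 at 24 h (adjusted p = 0.0019, short of 2-fold) and 1.15 ± 0.20 at 72 h (adjusted p = 2.5e-04, called). Both calls turn on single healthy libraries, since without replicate 1 the first was 1.16 and called, and without replicate 3 the second was 0.98 and not called. By 7 d the level was 272 to 339.7 CPM, within the healthy range. At chronic 24 h and 72 h Adamtsl2 held 209.7 to 319 CPM, also within the healthy range (0.06 ± 0.20 and -0.06 ± 0.20), and at chronic 14 d 151 to 208 CPM.

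Of 19 genes of latent TGF-beta and its release, 6 rose and 2 fell at acute 24 h and 8 rose and 2 fell at chronic 24 h (medians 0.25 and 0.83). Thbs1, thrombospondin 1, an activator of latent TGF-beta, rose from 98.1 CPM to 2065 CPM at acute 24 h (4.40 ± 0.37, adjusted p = 1.3e-08) and 5691 CPM at chronic 24 h (5.86 ± 0.38, adjusted p = 1.5e-10). Ltbp1, the partner of Adamtsl2, was not called at acute 24 h (0.25 ± 0.31) and rose at chronic 24 h (1.19 ± 0.29, adjusted p = 0.0030), and Ltbp2 rose by 5.52 ± 0.54. Tgfb1 was 0.96 ± 0.25 at acute 24 h, just short of 2-fold, and -0.03 ± 0.24 at chronic 24 h. Mmp2 fell at acute 24 h (-1.94 ± 0.26) and rose at chronic 24 h (1.23 ± 0.23). Mmp9 had no count in healthy libraries and averaged 6.51 CPM at chronic 24 h. Of 9 microfibril genes related to Adamtsl2, 0 rose and 3 fell at acute 24 h, and 3 rose and 3 fell at chronic 24 h (medians -0.71 and 1.04). Adamtsl4 fell from 225 CPM to 34.7 CPM and 22.9 CPM (-2.70 ± 0.31 and -3.30 ± 0.28), and Adamtsl6, annotated as Thsd4, by 1.98 ± 0.34 and 2.01 ± 0.31 on the log2 scale. Adamtsl1 fell at acute 24 h (-2.60 ± 0.47) and rose at chronic 24 h (2.51 ± 0.39), and Mfap4, which is also in the mesothelial and portal fibroblast list, rose at chronic 24 h (3.26 ± 0.65). At that time markers of other cells were higher too, 12 of 16 tested for macrophages and 7 of 7 for neutrophils. So were 6 of 12 for mesothelial cells and portal fibroblasts and 5 of 8 for smooth muscle. The part of these cells in the rises of both lists was not tested.

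**Figure D2:**
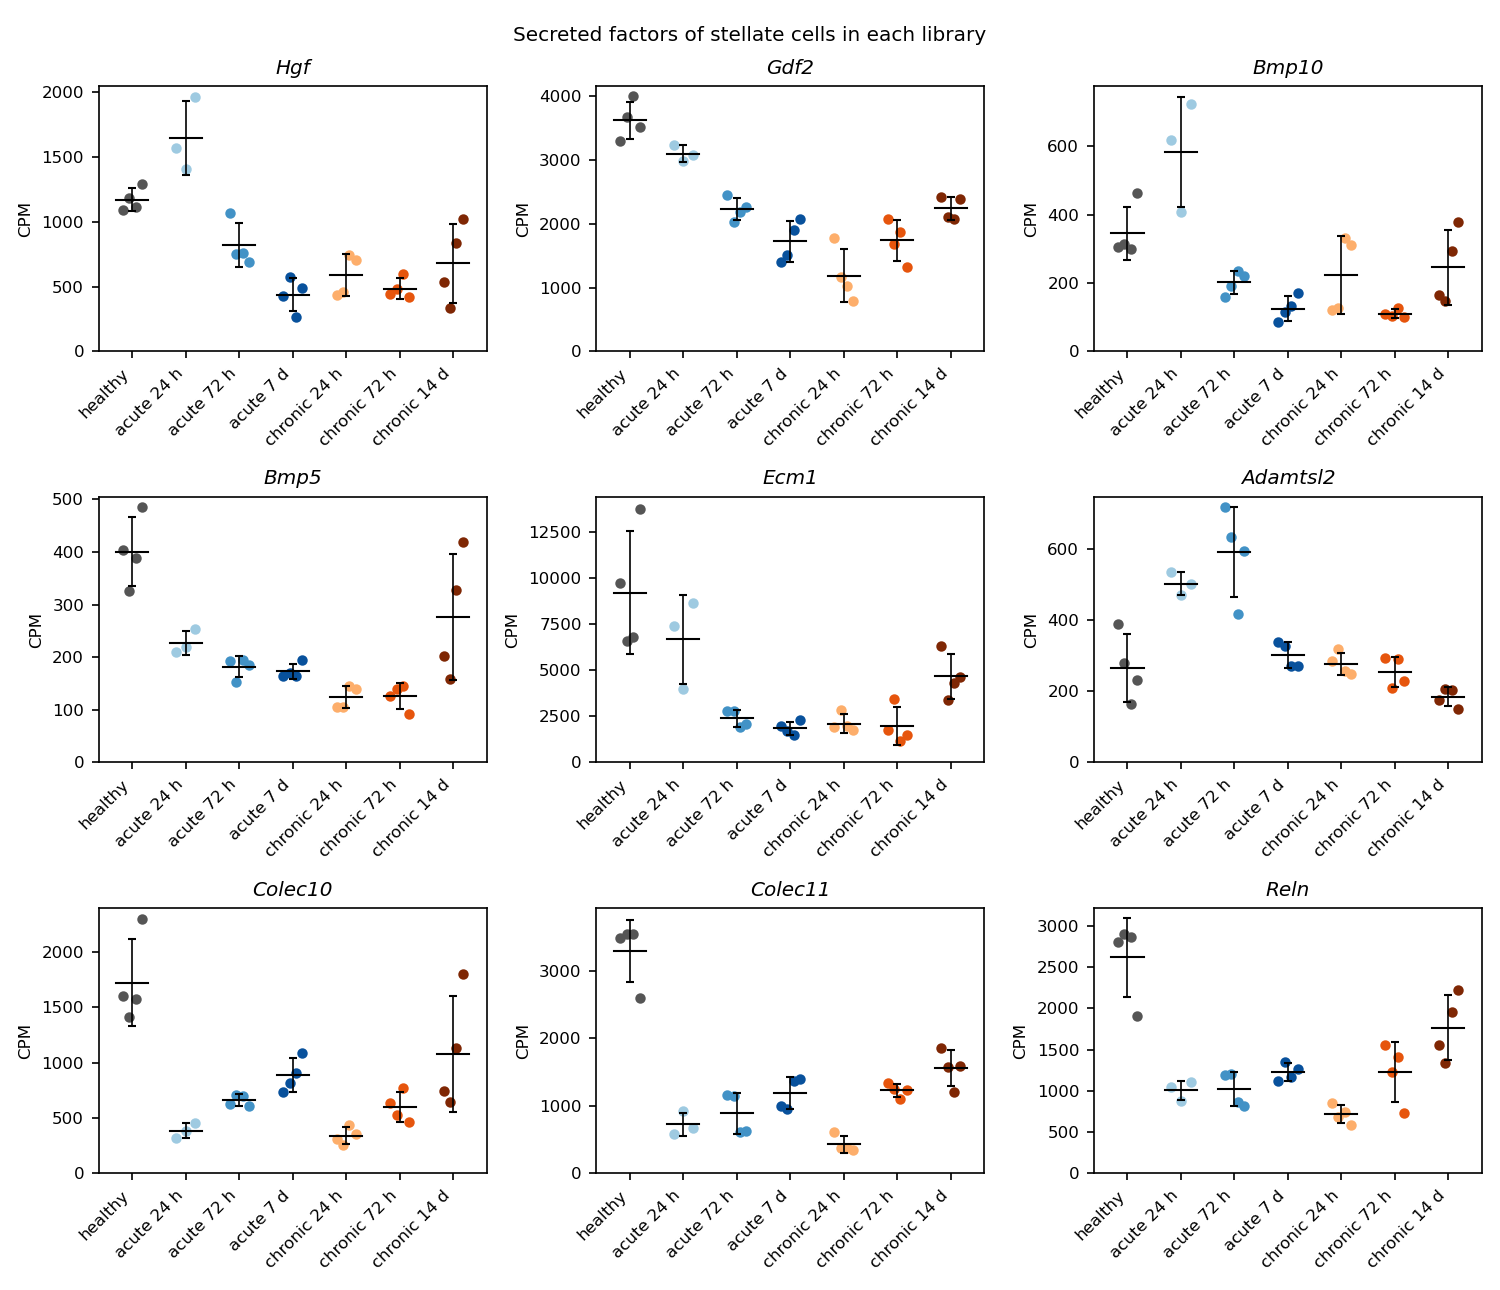
CPM (y axis, from 0) of each gene in every library by group (x axis). Points are libraries, horizontal lines the mean and bars ± SD. The 3 lower panels show Colec10, Colec11 and Reln already low at acute 24 h, the Hgf and Bmp10 panels show their highest values there, and Adamtsl2 peaks at acute 72 h.

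Colec10 (chr15:54410774-54466358, + strand) and Colec11 (chr12:28594173-28623377, - strand) encode collectins, soluble lectins that form complexes with each other and bind MASP proteases to start complement. Colec10 held 1600, 1414, 1576 and 2294 CPM in healthy libraries and 321, 379.6 and 457 CPM at acute 24 h. No library overlapped, and the fall was -2.16 ± 0.29 (adjusted p = 5.6e-06, and -1.99 without healthy replicate 4). It rose from there to 735, 819.6, 909 and 1091 CPM at acute 7 d, above all acute 24 h libraries (1.20 ± 0.28, adjusted p = 0.0015). These libraries were still below all healthy ones, at 51.6% of the healthy mean (-0.95 ± 0.25, adjusted p = 0.0081, short of 2-fold). The second low was at chronic 24 h, with 315, 256, 437 and 357 CPM or 19.8% of the healthy mean (-2.33 ± 0.26, adjusted p = 4.6e-07). By chronic 14 d Colec10 held 744, 645, 1134 and 1798 CPM, from below to inside the healthy range (-0.67 ± 0.25, adjusted p = 0.10).

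Colec11 at chronic 24 h had the largest fitted change from healthy among the 9 factors and 6 times. Its level was 3481, 3542, 3539 and 2597 CPM in healthy libraries, 588, 919 and 669 CPM at acute 24 h and 619, 380.1, 372 and 349 CPM at chronic 24 h. The falls were -2.18 ± 0.27 (adjusted p = 1.6e-06) and -2.94 ± 0.25 (adjusted p = 7.2e-09), the latter to 13.1% of the healthy mean. Leaving out healthy replicate 4, the lowest of its group, gave -2.28 and -3.03. At chronic 72 h the libraries held 1335, 1249, 1097 and 1230 CPM, and from chronic 24 h this was a rise of 1.51 ± 0.23 (adjusted p = 1.0e-04). Colec11 was the one factor still called lower at chronic 14 d (1856, 1581, 1202 and 1589 CPM, -1.08 ± 0.23, adjusted p = 0.0043), and that call was lost without chronic 14 d replicate 3 (-0.93) and with library size as the only scaling (-0.91).

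Of 11 other genes of the lectin pathway, 0 rose and 4 fell at acute 24 h, and 3 rose and 2 fell at chronic 24 h (medians -0.87 and 0.37). Masp1, the protease that collectins carry, held 751 to 1157 CPM in healthy and 329 to 467 CPM at acute 24 h (-1.16 ± 0.29, adjusted p = 0.0031) and 209 to 303 CPM at chronic 24 h (-1.79 ± 0.27, adjusted p = 1.7e-05). It stayed lower at acute 72 h, acute 7 d and chronic 72 h (-1.11 to -1.31) and was not called at chronic 14 d (-0.67 ± 0.26, adjusted p = 0.11). Fcna, ficolin A, another recognition lectin, averaged 2041 CPM in healthy and 1113 CPM at acute 24 h (-0.87 ± 0.36, adjusted p = 0.068) but 129.5 CPM at chronic 24 h (-3.98 ± 0.37, adjusted p = 3.6e-08). Mbl1 and Mbl2, lectins of hepatocytes, averaged 5.58 and 5.39 CPM in healthy and fell at acute 24 h (-5.44 ± 1.00 and -5.10 ± 1.28) together with the hepatocyte markers. Masp2 averaged 2.33 CPM in healthy and was not called at either 24 h time. The later components went the other way after repeated injury, with C3 at 2.21 ± 0.47 and C4b at 3.52 ± 0.32, while C3 fell at acute 24 h (-3.34 ± 0.56). Hepatocyte markers fell at acute 24 h in 14 of 16, and macrophage markers rose at chronic 24 h in 12 of 16. The part of both cell types in the values of these complement genes was not tested.

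Reln (chr5:21884454-22344702, - strand) encodes reelin, a large secreted glycoprotein that binds Vldlr and Lrp8 and is read through the adaptor Dab1. It held 2802, 2898, 2864 and 1909 CPM in healthy libraries and 1043, 874 and 1104 CPM at acute 24 h. The groups did not overlap, and the fall was -1.38 ± 0.23 (adjusted p = 8.0e-05, and -1.50 without healthy replicate 4). Through acute 72 h and 7 d it stayed at 820.3 to 1356 CPM. It was lowest at chronic 24 h, with 851, 689.8, 750.0 and 587 CPM (-1.86 ± 0.22, adjusted p = 6.3e-07). At chronic 72 h replicate 4 (728 CPM) lay apart from the others (1229 to 1560 CPM), and without it the change from healthy was -0.90 rather than -1.09. The chronic 14 d libraries held 1556, 1334, 1956 and 2218 CPM, reaching into the healthy range (-0.57 ± 0.21, adjusted p = 0.094). Exons of Reln share 246 bases, 1.04%, with the antisense gene Gm10475 (1 to 134 counts).

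Of 16 tested receptors, transducers and proteases of reelin, 2 rose and 1 fell at acute 24 h and 2 rose and 0 fell at chronic 24 h (medians -0.10 and 0.11), which is near the shares of all genes. Vldlr, Lrp8 and Dab1 averaged 0.406, 0.323 and 0.360 CPM in healthy libraries and were not called. The genes that rose were proteases, Plat, which is also in the HGF list, and Adamts4 (3.44 ± 0.47 and 2.29 ± 0.43), a metalloprotease that can cut reelin. Adamts5 fell at acute 24 h (-2.13 ± 0.29, adjusted p = 6.5e-06). Among 19 other factors that HSCs may send to their neighbours, 2 rose and 5 fell at acute 24 h and 8 rose and 5 fell at chronic 24 h (medians -0.23 and 0.48). Angptl6, an angiopoietin-like protein, fell from 1393 CPM to 121 CPM at acute 24 h (-3.53 ± 0.41, adjusted p = 7.8e-07) and 35.6 CPM at chronic 24 h (-5.29 ± 0.39, adjusted p = 1.2e-09). The neurotrophin Bdnf rose at both times (3.66 ± 0.38 and 4.27 ± 0.38). Fgf2 rose by 1.85 ± 0.36 at acute 24 h, and Vegfd, a lymphangiogenic factor, by 3.97 ± 0.57 at chronic 24 h.

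**Figure D3:**
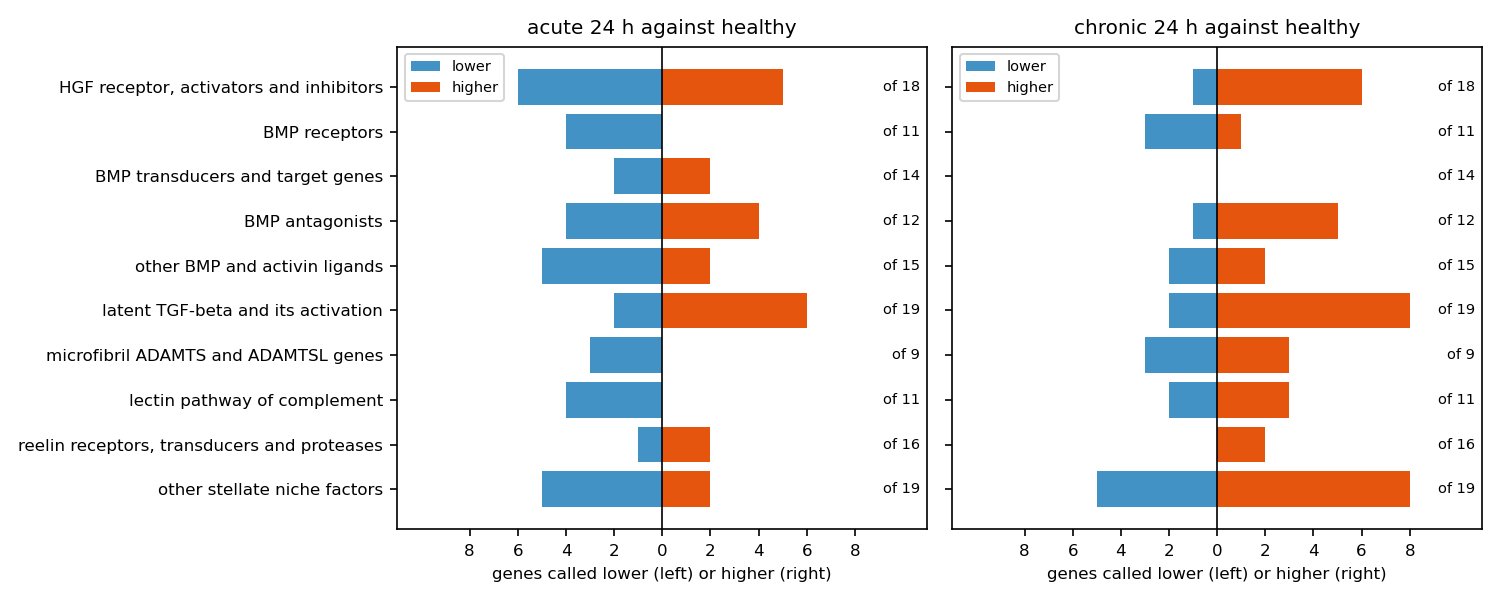
Number of genes called lower (bars to the left) or higher (bars to the right) than in healthy HSCs in the 10 lists of receptors, activators and related factors, with the number tested at the right. At acute 24 h the lectin pathway, BMP receptor and microfibril lists hold no gene called higher, and at chronic 24 h the latent TGF-beta and other niche factor lists hold 8 each.

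The next comparison was between the first and the repeated injury at the same time after CCl4. At 24 h, 4 factors were lower after 8 injections than after 1 (background 3.05%) and 0 were higher (10.9%). They were Hgf (-1.49 ± 0.29, adjusted p = 6.9e-04), Gdf2 (-1.38 ± 0.20, adjusted p = 3.1e-05), Bmp10 (-1.39 ± 0.34, adjusted p = 0.0051) and Ecm1 (-1.66 ± 0.33, adjusted p = 8.7e-04). Without overlap of libraries, 7 were lower (16.1%) and 0 higher (17.1%). In each of the 4 called the chronic libraries lay below the 3 acute ones. With higher-depth libraries alone Hgf, Gdf2 and Ecm1 remained called (-1.21, -1.81 and -1.88), while Bmp10 was -0.89 (adjusted p = 0.053). Colec10 and Reln, both low at each time, did not pass (-0.18 ± 0.27 and -0.49 ± 0.22, adjusted p = 0.69 and 0.13), and Colec11 was short of 2-fold (-0.75 ± 0.24, adjusted p = 0.029). At 72 h Adamtsl2 was the 1 factor lower after repeated injury (-1.21 ± 0.20, adjusted p = 2.6e-04, background 4.01%) and 0 were higher (5.11%), while 4 were lower and 0 higher without overlap (9.92% and 10.8%). The chronic and acute comparisons with healthy HSCs share the 4 healthy libraries.

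The step from 24 h to 72 h itself differed between the courses in 3 of 9 factors, each moving up relative to the acute course (2.28% of all genes did) and 0 down (6.46%). Gdf2 went by -0.47 ± 0.20 after 1 injection and by 0.55 ± 0.19 after 8, a difference of 1.02 ± 0.27 (adjusted p = 0.017). Colec11 went by 0.29 ± 0.25 and 1.51 ± 0.23, a difference of 1.22 ± 0.34 (adjusted p = 0.019). Its acute 72 h libraries were uneven, with 1163 and 1147 CPM in replicates 1 and 2 and 613 and 625 CPM in replicates 3 and 4. The 12 activation markers split the same libraries, with sums of 16254 and 15509 CPM against 32745 and 31620 CPM. The part of this split in the step was not tested. Ecm1 went by -1.48 ± 0.33 and -0.09 ± 0.31, a difference of 1.39 ± 0.45 that passed narrowly (adjusted p = 0.049) and was lost when any of 10 single libraries was left out (adjusted p 0.053 to 0.14). With only the 4 groups compared in the fit, Colec11 was still called (1.23, adjusted p = 0.0496), while Gdf2 (1.03, adjusted p = 0.053) and Ecm1 (1.40, adjusted p = 0.078) were not. Gdf2 was also under 2-fold when any of 5 single libraries was left out, namely acute 24 h replicate 1, acute 72 h replicate 2, chronic 24 h replicates 3 and 4 and chronic 72 h replicate 1 (0.93 to 0.99), and Colec11 was lost without acute 24 h replicate 2 (1.02, adjusted p = 0.085). Colec10 went up by less than 2-fold in both courses (0.78 ± 0.28 and 0.81 ± 0.25, difference 0.03 ± 0.37, adjusted p = 0.98).

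By 14 d after the last injection, 5 factors were higher than at chronic 24 h (background 6.65%) and 0 were lower (6.11%). Colec11 rose by 1.86 ± 0.24 (adjusted p = 5.9e-06), Colec10 by 1.66 ± 0.26 (adjusted p = 6.2e-05), Reln by 1.30 ± 0.21 (adjusted p = 1.1e-04), Bmp5 by 1.16 ± 0.22 (adjusted p = 5.8e-04) and Ecm1 by 1.14 ± 0.31 (adjusted p = 0.0099). Without overlap, 6 were higher (11.2%) and 1 lower (13.4%). Hgf (0.22 ± 0.27) and Bmp10 (0.14 ± 0.32) did not pass, with adjusted p of 0.62 and 0.80. Within lower-depth libraries alone, 3 factors were called, and Bmp5 (1.45, adjusted p = 0.056) and Ecm1 (1.03, adjusted p = 0.10) were not. Without chronic 14 d replicate 4 Bmp5 was 0.94, and without replicate 1 Ecm1 was 0.96, both short of 2-fold. After a single injection, from 24 h to 7 d, Hgf, Bmp10 and Ecm1 were lower (3 of 9, background 9.24%) and Colec10 was higher (1 of 9, background 17.8%). Without overlap, 6 were lower (24.9%) and 3 higher (27.1%).

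**Figure D4:**
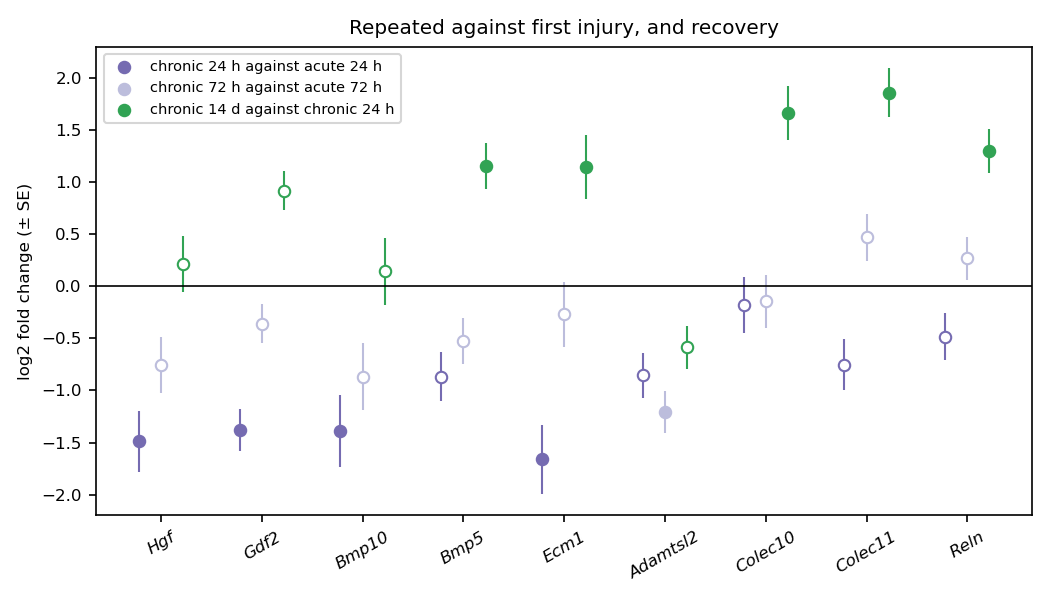
Log2 fold change (y axis, bars ± SE of the edgeR fit) of the 9 genes (x axis) between repeated and first injury at 24 h and 72 h and between 14 d and 24 h after the last of 8 injections. Filled points passed an adjusted p below 0.05 and 2-fold. Hgf, Gdf2, Bmp10 and Ecm1 are lower at chronic than at acute 24 h, and Bmp5, Ecm1, Colec10, Colec11 and Reln are higher at 14 d.

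When the 7 groups were ordered by mean log2 CPM, healthy was first for Gdf2, Bmp5, Ecm1, Colec10, Colec11 and Reln, acute 24 h for Hgf and Bmp10, and acute 72 h for Adamtsl2. Chronic 24 h was last for Gdf2, Bmp5, Colec10, Colec11 and Reln. Most neighbours in these orders did not pass an adjusted p below 0.05 (edgeR). Those that did were, for Colec11, healthy above chronic 14 d (adjusted p = 0.0043) and acute 24 h above chronic 24 h (adjusted p = 0.029). For Ecm1 they were chronic 14 d above acute 72 h (adjusted p = 0.029), and for Adamtsl2 acute 24 h above acute 7 d (adjusted p = 0.0093).

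Over the 27 libraries, Colec11 and Reln had the most alike profiles of the 9 (Pearson r of log2 CPM 0.891), followed by Hgf and Bmp10 (0.873). After removal of group means r was 0.330 and 0.641. Within groups Bmp5 and Colec10 were closest (0.875), both with higher values in chronic 14 d replicates 3 and 4 than in 1 and 2. Libraries of a group share their treatment, and at chronic 24 h and 72 h they differ in depth class, whose part in the within-group values was not tested. These values are descriptions. Among the 10293 genes searched, those averaging 3 or more in log2 CPM, the profile most like Colec11 was Angptl6 (0.978), ahead of Ephx1 (0.944) and Clec14a (0.943). Colec10 was most like Fam122b (0.963), Calcrl (0.957) and Fut8 (0.941), and Reln like Ank3 (0.961), Ntn1 (0.936) and Chd6 (0.931). Gdf2 was most like Hap1 (0.930), Rspo3 (0.916) and Aldh2 (0.907), and Bmp10 like Qsox2 (0.928), Ate1 (0.927) and Eaf1 (0.883). Hgf was nearest to Hipk1 (0.888), Itgb3 (0.876) and Bmp10. Ecm1 was nearest to Fcna (0.894), Rgs5 (0.871) and Mapk12 (0.864), and Bmp5 to its antisense neighbour Gm26903 (0.960) and Rgs7 (0.924). Adamtsl2 had the weakest companions, Gm26694 (0.838), Nasp (0.815) and Ppil1 (0.814).

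**Figure D5:**
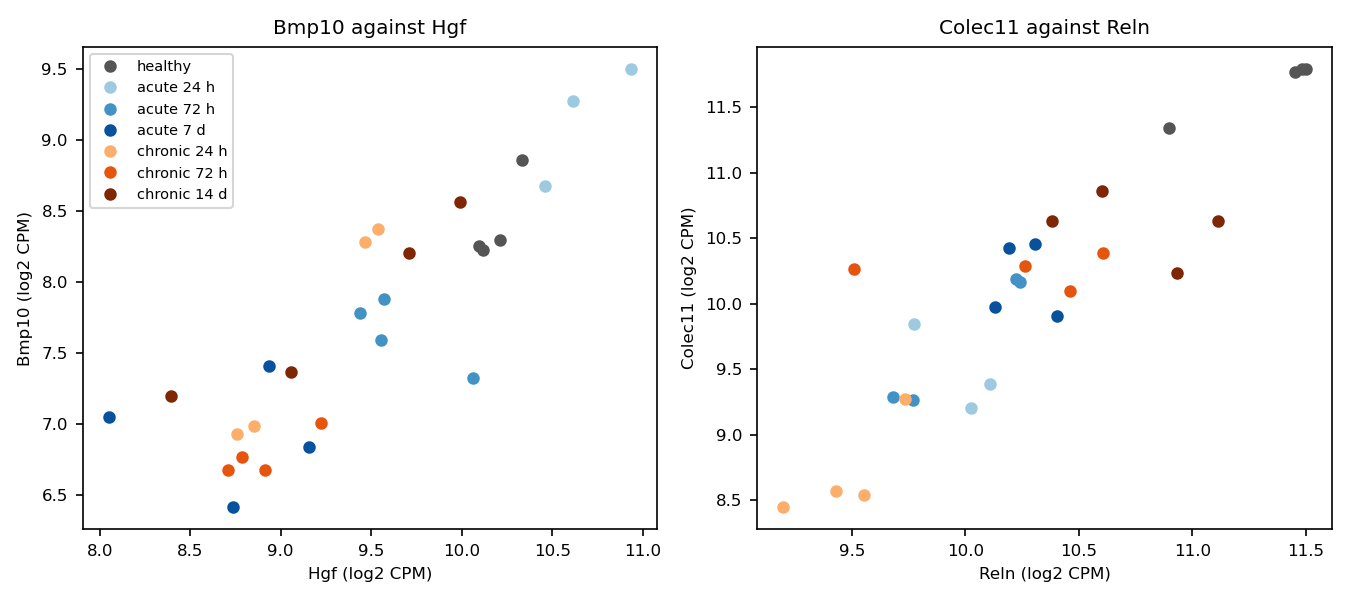
Log2 CPM of Bmp10 against Hgf (left) and of Colec11 against Reln (right), with a point per library and colours for the 7 groups. Acute 24 h libraries are at the top right for Hgf and Bmp10 and in the lower part for Colec11 and Reln, where healthy libraries are at the top right.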

How the data were processed

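Sorted HSCs gave 27 libraries in 7 groups, held in 1 table. The authors aligned single-end reads to GRCm38.p6 (STAR), followed by StringTie. Each deposited value is an unnormalized read count of an Ensembl gene in a library. How counts were derived from the assembly, their strand setting, the annotation release and the tool versions are not given in the sources used here. Totals were 6.31 M to 13.1 M counts per library. Groups came from the labels, and 0 columns stayed unmatched.

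edgeR 4.0.16 (R 4.3.3) was used for all tests. Genes were kept by filterByExpr (18758 of 53379) and scaled by TMM. A robust quasi-likelihood model with 1 mean for each group took in all 27 libraries, and p-values were adjusted by Benjamini-Hochberg over the 18758 genes. A gene was called at an adjusted p below 0.05 and above 2-fold. CPM uses TMM-scaled library sizes, and log2 CPM a prior count of 2. The code was tested on simulated data. Positions and exon lengths come from GENCODE M21 (GRCm38), which names 53274 of the gene IDs. Promoters come from RefSeq, where 8 of the 9 genes matched.

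Named were the 9 genes, the 3 genes most correlated with each, set receptors, regulators and targets of each list, the 3 genes with the largest change among those called in each list at acute or chronic 24 h, and Acta2, Col1a1 and Lrat. Genes whose exons overlap a factor are named as such. For Bmp5, 1 of the 3 correlated genes is not reported here. The members and lists were chosen with earlier results of these data known. Alternatives were DESeq2 1.42.0, other scalings, filters and thresholds, depth as a term or by class, the replicate number as a block, fits of fewer groups and leaving out each library. The lower-depth comparison of chronic 14 d with chronic 24 h was chosen after the data were seen.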

Additional observations from a re-analysis of the deposited data

Results flagged for a closer look

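Of 54 groups of 4 libraries examined, 4 held a value far from its neighbours, and chance alone flags about 1 in 20. Bmp10 was 463 CPM in healthy replicate 4 against at most 314 CPM in the other healthy libraries. In the same library Colec11 was 2597 CPM, with the nearest value at 3481 CPM, and Reln was 1909 CPM, with the nearest at 2802 CPM. That library also held 7154 CPM of hepatocyte markers. Colec11 was 619 CPM in chronic 24 h replicate 1, with the nearest value at 380.1 CPM.

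The change from 24 h to 72 h differed between 8 injections and 1 injection, by a test of the difference itself, in 3 factors. The difference in log2 fold change was 1.02 for Gdf2 (adjusted p = 0.017), 1.39 for Ecm1 (adjusted p = 0.049) and 1.22 for Colec11 (adjusted p = 0.019, edgeR). Fitted on the 4 groups alone, Colec11 was the 1 factor still called. Ecm1 was also lost with the replicate number as a block (adjusted p = 0.051) and when any of 10 single libraries was left out.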

How the results depend on the processing

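Of 398 recomputed counts of called factors, 378 stayed within 1.5 times the reported ones, and 0 called changes reversed. Without a fold minimum, 1 factor was higher at acute 24 h, 2 were higher and 5 lower at acute 7 d against acute 24 h, 7 were lower at chronic 24 h against acute 24 h, 1 was lower at chronic 14 d against chronic 24 h and 3 were lower at chronic 14 d against healthy. The last count was 3 with depth class as a term, 0 with library size alone, and 0 to 2 when single libraries were left out. Leaving out single libraries gave 0 to 1 higher at acute 24 h and 0 to 1 at acute 72 h. In lower-depth libraries 3 factors were higher at chronic 14 d than at chronic 24 h. The step from 24 h to 72 h differed in 1 factor when only the 4 groups compared were fitted and in 1 to 3 when single libraries were left out. Of 1908 values of single genes, 1835 stayed on the same side of the threshold. Direction was compared only where a change was called. Library size alone raised the median of all genes by up to 0.17 (log2, chronic 14 d against healthy) relative to TMM and brought Gdf2 and Reln under 2-fold at acute 7 d and chronic 72 h (-0.93 to -0.99).

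Over all groups together, same-numbered libraries were about as alike as others. Deviations correlated above 0.1 in 6 of 78 same-numbered pairs (median 0.0034) and in 16 of 234 other pairs, and 7 of 27 libraries were closest to their own number. Pairing within part of the series was not tested. At chronic 24 h and 72 h replicates 1 and 2 were of lower depth and 3 and 4 of higher depth. With the replicate number as a block, Hgf at chronic 24 h was called (-1.02), making 7 lower in place of 6, and Ecm1 lost its step difference (1.42, adjusted p = 0.051), leaving 2.

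Counting error is small at these levels, since every factor had over 700 counts per library, and the number of libraries limits precision. Depth class is tied to group at chronic 14 d. Reads shared by Bmp5 and Gm26903 cannot be assigned.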
